A study of Caenorhabditis elegans with 2 samples.

Results

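Autosomal distal intergenic NHR-25 peaks are places on chromosomes I to V where tagged NHR-25 was enriched outside annotated genes and away from protein-coding 5′ ends. They were chosen by position alone from the thresholded peak list on genome build ce11. A peak was taken when its summit lay more than 500 bp from every protein-coding 5′ end and outside the span of every annotated gene of any kind. There were 395 such peaks, which is 28.9% of the 1367 autosomal thresholded peaks (Wilson 95% interval 26.6 to 31.4%) and part of 1826 peaks in all. Of the other autosomal summits, 630 were no more than 500 bp away from such an end and are called promoter-proximal, and 342 lay inside genes and are called gene-body peaks. Because only protein-coding 5′ ends were used, "distal" says nothing about the distance to 3′ ends or to genes for small RNAs. Some of these summits lie beside small RNA genes. The closest protein-coding 3′ end was between 4 and 19963 bp away, with a median of 2690 bp.

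The study mapped NHR-25 by chromatin immunoprecipitation and sequencing (ChIP-seq) in hermaphrodite Caenorhabditis elegans at the L4 larval stage, with 2 biological replicates of 1 group and no comparison group. Both replicates are the transgenic strain OP33, whose genotype is unc-119(ed3) III; wgIs33, and which stably expresses a fusion of NHR-25 to a C-terminal GFP-FLAG tag, pulled down with anti-GFP. The sources used here do not give the promoter of the transgene, its copy number or the number of worms per replicate, and the age is recorded as unknown. Whole worms were used, so a peak cannot be assigned to a tissue. Each list gives a signal value per peak, which is the authors' own value on a scale that is not stated, so peaks were ranked and described by it within 1 list only. Lists of peaks hold no read counts, the sequencing depth is therefore unknown, and the intervals printed with shares reflect counting error alone.

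NHR-25 belongs to the NR5A family of nuclear receptors, with FTZ-F1 in flies and SF-1 and LRH-1 in mammals as relatives. NR5A proteins bind DNA as monomers, through the nuclear receptor core AGGTCA preceded by a short extension, which gives sites of the kind TCAAGGTCA. In C. elegans, NHR-25 is known for roles in the epidermis, in molting, in seam cell division, in vulval patterning and in the developing gonad. Intergenic sequence in this compact genome can hold enhancers and also the promoters of genes for small RNAs such as transfer RNAs, small nuclear RNAs and microRNAs.

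The sequences below come from distal intergenic summits that held the NR5A site and show what the site looks like in its surroundings. The site was searched as C or T, then CAAGG, then C or T, then C, then A or G, on both strands, within 100 bp of the summit. Capitals mark the site, each line is read 5′ to 3′ along the strand on which the site lies, and rank 1 is the highest pooled signal among the 395 peaks. Sequence is from the RefSeq genome of assembly WBcel235, which is build ce11.
Peak ranked 14, nearest 5′ end din-1, chrII:11636068-11636106, minus strand: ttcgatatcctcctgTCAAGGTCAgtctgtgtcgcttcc
Peak ranked 87, nearest 5′ end ced-6, chrIII:5594535-5594573, minus strand: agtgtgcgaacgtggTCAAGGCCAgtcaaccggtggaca
Peak ranked 100, nearest 5′ end R148.5, chrIII:3161750-3161788, plus strand: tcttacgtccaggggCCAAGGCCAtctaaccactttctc
Peak ranked 107, nearest 5′ end Y69E1A.8, chrIV:10971979-10972017, minus strand: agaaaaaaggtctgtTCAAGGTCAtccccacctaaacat
Peak ranked 124, nearest 5′ end snt-1, chrII:6821349-6821387, minus strand: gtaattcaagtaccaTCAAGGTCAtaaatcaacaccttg
Peak ranked 137, nearest 5′ end C10C5.4, chrIV:9376752-9376790, plus strand: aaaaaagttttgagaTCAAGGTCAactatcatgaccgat
Peak ranked 162, nearest 5′ end sre-2, chrII:8099390-8099428, minus strand: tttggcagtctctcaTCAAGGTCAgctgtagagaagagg
Peak ranked 182, nearest 5′ end igdb-2, chrIV:12467878-12467916, plus strand: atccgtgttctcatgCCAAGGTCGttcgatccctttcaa
Peak ranked 186, nearest 5′ end Y51A2D.21, chrV:18569705-18569743, plus strand: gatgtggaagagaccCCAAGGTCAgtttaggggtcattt
Peak ranked 236, nearest 5′ end nsy-1, chrII:5021711-5021749, minus strand: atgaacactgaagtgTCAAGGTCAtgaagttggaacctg
Peak ranked 286, nearest 5′ end madf-4, chrV:9962986-9963024, plus strand: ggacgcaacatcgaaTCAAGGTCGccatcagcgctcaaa
Peak ranked 296, nearest 5′ end K12G11.6, chrV:11896784-11896822, plus strand: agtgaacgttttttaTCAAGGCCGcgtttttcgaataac
Peak ranked 302, nearest 5′ end fbxa-220, chrIII:11479288-11479326, minus strand: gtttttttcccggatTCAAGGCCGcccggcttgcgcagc
Peak ranked 311, nearest 5′ end toh-1, chrIII:3811392-3811430, plus strand: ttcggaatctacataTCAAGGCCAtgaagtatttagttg
Peak ranked 387, nearest 5′ end hlh-33, chrIII:1854095-1854133, minus strand: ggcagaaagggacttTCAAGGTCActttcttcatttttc

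The full form TCAAGGTCA stands in the lines for the peaks near din-1, Y69E1A.8, snt-1, C10C5.4, sre-2, nsy-1 and hlh-33. The next lines show the bases around 5 strong summits that carry or lack the repeats described further on, again 5′ to 3′ on the plus strand. Capitals mark NR5A sites, the repeat GAGAGAG and the site GAGACGCAG on either strand, the last of which resembles the site of EOR-1, a zinc-finger protein.
Peak ranked 1, nearest 5′ end cbp-1, chrIII:9765542-9765662, plus strand: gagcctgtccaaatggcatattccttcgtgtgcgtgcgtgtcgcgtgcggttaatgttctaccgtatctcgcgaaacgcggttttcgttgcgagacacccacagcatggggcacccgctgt
Peak ranked 3, nearest 5′ end K12H4.5, chrIII:8043899-8044019, plus strand: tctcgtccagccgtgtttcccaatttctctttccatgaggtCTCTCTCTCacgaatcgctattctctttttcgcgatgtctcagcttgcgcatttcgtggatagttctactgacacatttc
Peak ranked 14, nearest 5′ end din-1, chrII:11635931-11636051, plus strand: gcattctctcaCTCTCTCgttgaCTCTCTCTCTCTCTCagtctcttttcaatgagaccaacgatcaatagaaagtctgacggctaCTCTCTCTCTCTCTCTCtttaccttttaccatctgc
Peak ranked 16, nearest 5′ end nhr-88, chrII:2973993-2974113, plus strand: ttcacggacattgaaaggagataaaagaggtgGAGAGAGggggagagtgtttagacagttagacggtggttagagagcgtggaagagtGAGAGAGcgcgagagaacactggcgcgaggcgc
Peak ranked 23, nearest 5′ end pan-1, chrIII:4560652-4560772, plus strand: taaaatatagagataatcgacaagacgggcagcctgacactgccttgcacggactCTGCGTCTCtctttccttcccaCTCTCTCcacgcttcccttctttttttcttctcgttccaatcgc

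The strongest peak, near cbp-1, held none of these 3 motifs in the bases shown. A further set shows GAGACGCAG at 6 of the stronger peaks that carry it, oriented so that the site reads on the printed strand. Capitals mark GAGACGCAG and any GAGAGAG.
Peak ranked 20, nearest 5′ end hif-1, chrV:20778319-20778377, minus strand: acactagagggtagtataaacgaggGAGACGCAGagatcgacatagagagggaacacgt
Peak ranked 32, nearest 5′ end T04C4.3, chrIV:2219597-2219655, minus strand: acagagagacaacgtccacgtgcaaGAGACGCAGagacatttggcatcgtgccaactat
Peak ranked 33, nearest 5′ end unc-39, chrV:14368372-14368430, minus strand: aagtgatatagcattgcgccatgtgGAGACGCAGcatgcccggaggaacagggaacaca
Peak ranked 59, nearest 5′ end ogt-1, chrIII:7155920-7155978, minus strand: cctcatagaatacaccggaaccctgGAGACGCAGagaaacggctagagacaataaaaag
Peak ranked 66, nearest 5′ end gmeb-1, chrII:19028-19086, plus strand: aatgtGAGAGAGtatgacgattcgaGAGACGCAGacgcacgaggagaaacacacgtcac
Peak ranked 79, nearest 5′ end rho-1, chrIV:16492350-16492408, plus strand: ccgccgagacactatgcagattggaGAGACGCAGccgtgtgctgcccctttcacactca

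The last set shows the 80 bases before 4 small nuclear RNA genes whose upstream side held a distal intergenic summit, with the first 30 bases of each gene in capitals. They are shown because several of the strongest peaks lay there. Each is on the strand of the gene.
sls-2.2, chrII:5543518-5543627, plus strand: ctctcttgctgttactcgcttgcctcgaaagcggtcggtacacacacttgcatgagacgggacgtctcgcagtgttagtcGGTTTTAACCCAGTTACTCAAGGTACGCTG
sls-2.1, chrII:5844785-5844894, plus strand: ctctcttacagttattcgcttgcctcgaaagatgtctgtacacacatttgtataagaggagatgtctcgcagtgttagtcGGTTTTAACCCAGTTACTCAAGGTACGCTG
F38E11.11, chrIV:9444562-9444671, plus strand: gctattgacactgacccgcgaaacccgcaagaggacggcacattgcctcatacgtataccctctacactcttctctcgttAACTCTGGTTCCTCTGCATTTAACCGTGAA
F54D8.7, chrIII:5080869-5080978, minus strand: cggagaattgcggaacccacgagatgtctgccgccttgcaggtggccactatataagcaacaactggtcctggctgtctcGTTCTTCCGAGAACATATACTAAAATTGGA

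The pooled signal of the 395 peaks ran between 30.4 and 144, with a median of 41.5 and quartiles of 35.1 and 52.5. The strongest, at chrIII:9765504-9765695, lay 907 bp upstream of the 5′ end of cbp-1, the worm counterpart of the CBP/p300 acetyltransferases. Its values were 144 in the pooled list, 58.2 in replicate 1 and 83.7 in replicate 2, each the highest among the 395 peaks. The peak ranked 3, at chrIII:8043861-8044082, lay 528 bp upstream of K12H4.5, with 114 in the pooled list, 51.8 in replicate 1 and 60.6 in replicate 2. Upstream of chd-7, which codes for a chromodomain helicase, the peak ranked 5 had 110 in the pooled list, 45.4 in replicate 1 and 64.9 in replicate 2. In both replicates these 3 peaks lay above the medians of the 395, which were 17.3 in replicate 1 and 26.2 in replicate 2. The pooled list comes from both replicates and these peaks were picked by pooled signal, so this is not independent replicate agreement.

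Further peaks among the 20 strongest are described by their nearest genes. The peak ranked 14, at chrII:11635949-11636073, was 2382 bp upstream of din-1, which codes for a corepressor of the steroid receptor DAF-12. Its signal was 88.4 in the pooled list, with 22.5 in replicate 1 and 67.4 in replicate 2. It was the only one of the 20 strongest peaks with an NR5A site. Near nhr-88, a nuclear receptor gene, the peak ranked 16 had 85.5 in the pooled list, with 37.9 in replicate 1 and 49.2 in replicate 2. Upstream of let-70, which codes for a ubiquitin-conjugating enzyme, the peak ranked 19 had 80.01 in the pooled list. The peak ranked 20, 1981 bp upstream of hif-1, the hypoxia-inducible factor gene, had 79.5 in the pooled list, with 43.8 in replicate 1 and 35.5 in replicate 2. Both of these replicate values lay above the replicate medians, which a high pooled signal makes likely.

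One place held a group of summits, counting 3 or more within 2 kb. It lay upstream of nhr-85, the worm relative of the Rev-Erb receptors and a component of larval timing, and its 3 summits spanned 1388 bp. In the pooled list they had 96.8, 73.2 and 41.2. The strongest of the 3, 2056 bp from the 5′ end, had 34.8 in replicate 1 and 60.6 in replicate 2. The other 2 overlapped the same replicate peaks, with 32.5 in replicate 1 and 48.9 in replicate 2. Of all 395 peaks, 28 overlapped another thresholded peak, and 24 shared their strongest overlapping peak of a replicate with another distal intergenic peak, in each replicate. Joining summits within 500 bp left 383 separate places.

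Some distal intergenic peaks lay beside genes for small structural RNAs, and a few of these, at snRNA genes and at 1 snoRNA gene, were among the 20 strongest. Within 100 bp of a transfer RNA (tRNA), small nucleolar RNA (snoRNA) or small nuclear RNA (snRNA) gene lay 22 of 395 summits, or 5.57% (Wilson 95% interval 3.71 to 8.29%). In the below-threshold distal intergenic peaks of the pooled list the count was 49 of 5493, or 0.892% (0.675 to 1.18%). That list is labelled as peaks and background, so its entries below the threshold can include background. Of the open sequence, the autosomal bases that meet the same position rule, 0.210% lay that close. The 2 intervals do not overlap, but these neighbours were chosen after their values were seen, and no test was run on this count. The 22 summits lay beside 19 genes, so they are not all separate places, although the interval counts them as if they were. Among the 20 strongest peaks were 6 of the 22, with those ranked 2 and 17 both beside the snRNA gene sls-2.2. The others of the 22 were not among the 20 strongest. Other kinds of noncoding gene also lay within 100 bp. Genes annotated as ncRNA were that close to 31 of 395 summits (7.85%, against 1.54% of the open sequence). For genes annotated as piRNA the count was 3 (0.759%, against 4.93%). Neither count was tested.

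The snRNA genes had the highest values of the 3 kinds. Their 10 summits had pooled signals between 34.3 and 119.5, with a median of 77.6. The summit ranked 2 lay 22 bp upstream of sls-2.2, a gene for the spliced leader RNA SL2, which is trans-spliced onto downstream messages of operons. It had 119.5 in the pooled list, with 48.1 in replicate 1 and 71.7 in replicate 2. Another SL2 RNA gene, sls-2.1, had the summit ranked 6 at 20 bp upstream, with 109 in the pooled list, 34.6 in replicate 1 and 81.4 in replicate 2. At sls-2.4 the summit ranked 7 lay 23 bp upstream, with 103 in the pooled list, 49.7 in replicate 1 and 54.5 in replicate 2. A further snRNA gene, F38E11.11, had the summit ranked 8 at 54 bp upstream, with 103 in the pooled list, 44.4 in replicate 1 and 56.0 in replicate 2. In both replicates all 4 stood above the medians of the 395 peaks. They rank high in the pooled list, which comes from both replicates, so this is not independent agreement.

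For sls-2.2, F38E11.11 and sls-2.4 a further thresholded peak lay downstream of the gene, ranked 17, 34 and 54, with 84.02, 71.25 and 61.70 in the pooled list. Each shared its replicate peaks with the upstream one, so the pairs are not separate measurements. The sequences printed above for sls-2.2 and sls-2.1 were identical at 68 of 80 upstream bases (85%) and at 30 of 30 gene bases. Reads from such near-identical copies can be split between them, and how reads with several matches were handled is not given in the sources used here, so the values at the SL2 RNA genes are uncertain. F38E11.11 and F54D8.7 are not such copies of each other, with 22 of 80 upstream bases identical (27.5%). At F54D8.7 the summit ranked 150 lay 25 bp upstream and had 45.7 in the pooled list, with 8.84 in replicate 1 and 37.9 in replicate 2. The other SL2 RNA gene here, sls-2.17, had a weak peak downstream of it, ranked 312, with a pooled signal of 34.3.

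All 5 snoRNA summits were upstream of their genes, with pooled signals between 36.8 and 99.8 and a median of 41.9. The highest, ranked 10, lay 44 bp from F59C6.15 and had 45.3 in replicate 1 and 55.6 in replicate 2. The 7 tRNA summits had pooled signals between 30.9 and 57.0 with a median of 45.2, and 4 of them were upstream. The snoRNA and tRNA medians lay close to the median of 41.5 over all 395 peaks. Among the 22 summits beside small RNA genes, 1 held an NR5A site, 1 held GAGAGAG and 0 held GAGACGCAG. Over all 395 summits the shares were 5.32%, 29.9% and 16.5% in that order, so the NR5A count was near its overall share. Their median GC content within 100 bp of the summit was 46.0%, against 43.3% in all 395.

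MicroRNA genes lay further from the summits. Within 500 bp of a microRNA gene were 7 of 395 summits (1.77%), against 0.317% of the open sequence, and none was within 100 bp. Of the 7 summits, 6 were upstream of the microRNA gene. The strongest, ranked 4 at chrV:14364755-14364882, lay 343 bp upstream of mir-48, a let-7 family microRNA of larval timing, with 112 in the pooled list, 47.8 in replicate 1 and 65.3 in replicate 2. The closest coding 5′ end was that of Y49A3A.4, 5962 bp away, and on the other side lay unc-39, a Six-type homeobox gene. The other 5 upstream summits, at mir-53, mir-228, mir-79, mir-238 and mir-80, had pooled signals of 53.9, 49.5, 42.8, 32.5 and 30.4. The remaining summit, downstream of mir-8186-1, had 58.9. The plot of replicate signals shows both kinds of small RNA neighbour.

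**Figure D1:**
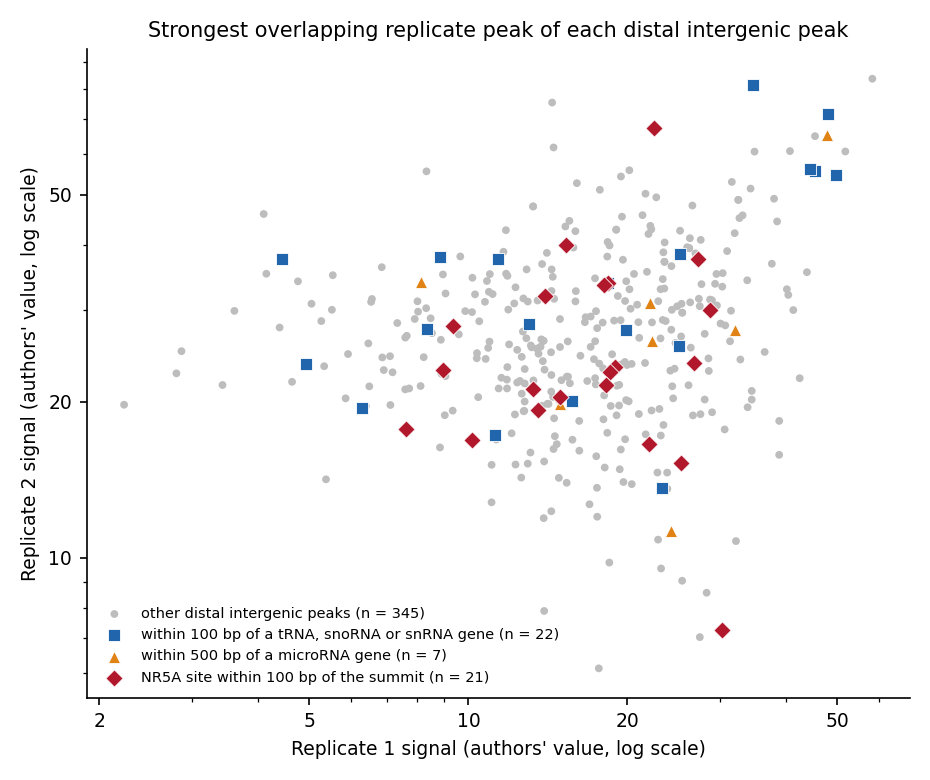
Signal of the strongest overlapping peak in replicate 1 (x axis) and replicate 2 (y axis), both on log scales in the authors' units, for the 394 distal intergenic peaks with a peak in each replicate list. Squares are summits within 100 bp of a tRNA, snoRNA or snRNA gene, triangles are within 500 bp of a microRNA gene and diamonds have an NR5A site. Some squares lie in the upper right corner and others among the bulk of the peaks, and diamonds are spread through the middle.

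The replicates ranked the 395 peaks only loosely alike. Replicate 1 signals ran between 2.23 and 58.2 and replicate 2 signals between 6.12 and 83.7, and 1 peak had no overlapping peak in replicate 1. Over the 394 peaks found in both lists, Spearman's rho was 0.197 and Pearson's r of log2 signal was 0.189, as a description, since all points share the same libraries and all passed 1 threshold. Promoter-proximal peaks gave a rho of 0.246 and gene-body peaks one of 0.286. From each replicate list the 1826 peaks of highest signal were taken as its strongest. Those of replicate 1 were met by 273 of the 395 peaks (69.1%), against 66.1% of all autosomal thresholded peaks, and those of replicate 2 by 310 (78.5%), against 79.6%. Both were met by 211 peaks (53.4%) and neither by 23. These shares are near those of all autosomal peaks.

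The NR5A site was concentrated at distal intergenic summits. It lay within 100 bp of the summit in 21 of 395 peaks (5.32%) and in 0 windows of the same width 500 bp away, which allows a share of up to 0.759% by the limit of 3 counts. The bar in the plot of motif shares is the Wilson interval, whose upper end for the same 0 of 395 is 0.963%. A two-sided exact McNemar test over the same peaks gave an adjusted p of 2.86e-06, with Benjamini-Hochberg adjustment over 15 motifs. The motifs were chosen with earlier results of these data known, so this and the later motif p-values are not independent tests. The difference was 5.32 percentage points, and it was 3.18 without replicate 1, 4.36 without replicate 2 and 2.53 with 50 bp on each side, with an adjusted p below the threshold of 0.05 each time. The site was in 0.983% of the 5493 distal intergenic peaks below the threshold and in 0.425% of 90164 windows of 201 bases tiled over the open sequence. Of the 432 NR5A sites in that sequence, 21 (4.86%) lay in the summit windows, so most sites in it had no thresholded peak. Among all autosomal thresholded peaks the share with the site was 3.22%.

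Peaks with an NR5A site were not the strongest as a group. Their pooled signals ran between 30.7 and 88.4 with a median of 43.1, against 41.5 over the 395 peaks. Above the median signal of the 395 lay 12 of them and at or below it 9. The second strongest, ranked 41 with 65.3, lay between tag-353 and blmp-1, the gene for a zinc-finger regulator of larval timing, with 27.2 in replicate 1 and 37.6 in replicate 2. Upstream of ced-6, which codes for an engulfment adaptor, the peak ranked 87 had 54.6 in the pooled list, with 15.3 in replicate 1 and 40.1 in replicate 2. In the gap between snt-1, the synaptotagmin gene, and egl-27 the site was at a peak 10311 bp away from any 5′ end, with 26.8 in replicate 1 and 23.7 in replicate 2. Upstream of nsy-1, which codes for a MAP kinase kinase kinase, the peak had 30.3 in replicate 1 and 7.25 in replicate 2, so it was above the median in replicate 1 and near the lowest value in replicate 2.

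The remaining NR5A peaks lay near a range of genes. By nearest 5′ end these included T23B3.8, R148.5, T09B4.8, Y69E1A.8, C10C5.4, sre-2, igdb-2, Y51A2D.21, Y65B4BL.1, madf-4, K12G11.6, fbxa-220, toh-1 and hlh-33. The peak of toh-1, a tolloid-type protease gene, lies between it and dpy-27, a condensin gene of dosage compensation, and had 34.4 in the pooled list, with 22.0 in replicate 1 and 16.5 in replicate 2. At hlh-33, a helix-loop-helix gene, the pooled signal was 30.7. Of the 21 NR5A peaks, 7 had a coding 5′ end within 2 kb, against 210 of all 395 distal intergenic peaks. Among the strongest peaks of both replicates were 13 of the 21, against 211 of all 395 (53.4%). Neither difference was tested. The site lay a median of 54 bp from the summit, and 10 of 21 sites were within 50 bp.

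Looser and stricter forms of the receptor site gave the same direction. The core AGGTCA was at 75 summits (19.0%) and 20 flanks (5.06%), with an adjusted p of 5.86e-09 by the exact McNemar test. The difference of 13.9 points was 9.05 without replicate 1, 7.44 without replicate 2 and 7.85 with 50 bp on each side, and its adjusted p stayed under 0.05. Of the 75 summits, 63 had the core without a full NR5A site. The share over all autosomal thresholded peaks was 12.4%. The full TCAAGGTCA was at 8 summits (2.03%) and 0 flanks, with an adjusted p of 0.0146 by the same exact test, which became 0.0670 without replicate 1 and 0.298 without replicate 2. By that test it also missed the threshold with 50 bp on each side (0.208), above the median signal (0.134) and with a flank 1000 bp away (0.0732). It passed after merging and when distal meant more than 1000 bp (0.0167 for each).

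Among the motifs that passed the test as higher at summits, GAGAGAG was the most frequent. GAGAGAG lay within 100 bp of 118 summits (29.9%) and 14 flanks (3.54%), with an adjusted p of 7.47e-23 by the exact McNemar test. The limit on how the motifs were chosen holds here too. It was in 8.27% of below-threshold distal peaks, in 3.43% of tiled windows and in 22.5% of all autosomal thresholded peaks. GAGACGCAG was at 65 summits (16.5%) and 7 flanks (1.77%), with an adjusted p of 5.74e-13 by the exact test. Its shares were 3.46% below the threshold, 1.15% in tiled windows and 14% over all autosomal thresholded peaks. The median distance from the summit was 24 bp for GAGACGCAG, with 49 of 65 within 50 bp, and 31.5 bp for GAGAGAG, with 85 of 118 within 50 bp.

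At least 1 of these motifs was at 150 of 395 summits and both were at 33. Of the 21 NR5A peaks, 6 also held GAGAGAG, 4 held GAGACGCAG and 12 held neither. EOR-1, whose site GAGACGCAG resembles, is a zinc-finger protein of Ras and Wnt signalling. The peak near pan-1, a gene for a transmembrane protein needed for larval molting, held both and had 76.1 in the pooled list, with 22.7 in replicate 1 and 49.5 in replicate 2. A peak 4751 bp upstream of unc-39, with GAGACGCAG, had 72.1 in the pooled list, 40.4 in replicate 1 and 32.1 in replicate 2. Near ogt-1, which codes for O-GlcNAc transferase, the values were 60.9, 31.4 and 29.9 in the same order.

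**Figure D2:**
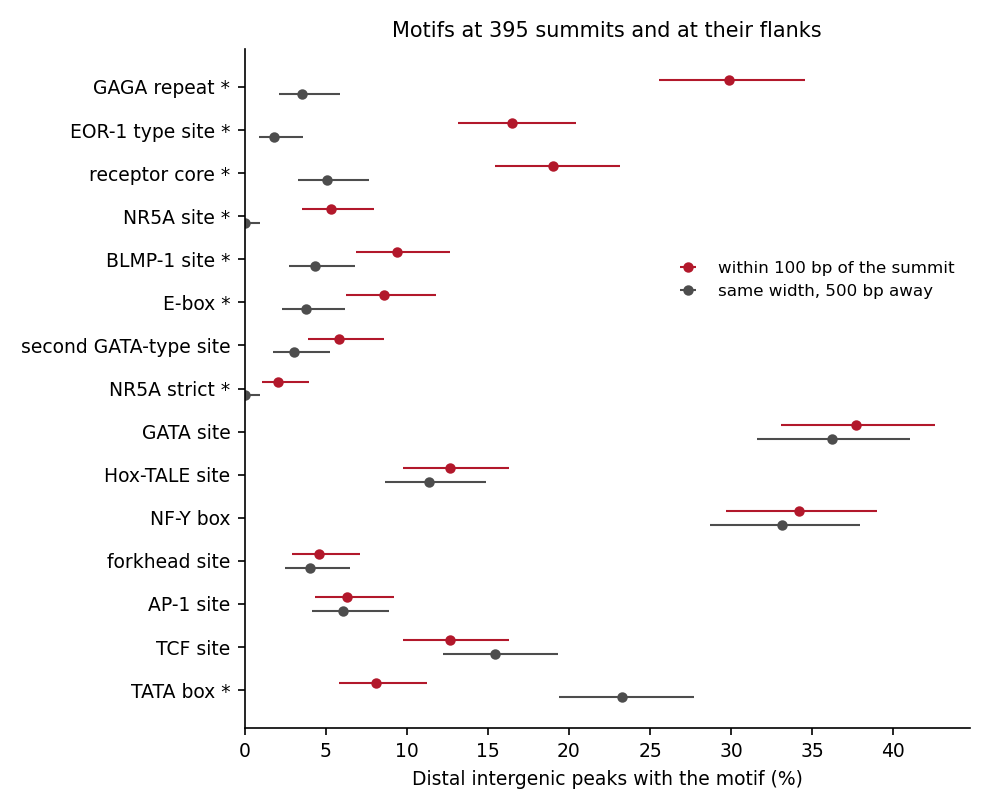
Share of the 395 distal intergenic peaks (x axis, percent) with each motif (y axis) within 100 bp of the summit and in a window of the same width 500 bp away. Points are shares, bars are Wilson 95% intervals, and a star marks an adjusted p under 0.05 by the exact McNemar test. GAGAGAG reaches 29.9% at summits, and the TATA box is the motif that is lower at summits than at flanks with a star.

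A few other motifs passed the test. The BLMP-1 site, searched as TTTCNCTTT with any base at N, was at 37 summits (9.37%) and 17 flanks (4.30%), with an adjusted p of 0.0142 by the exact McNemar test. The E-box CACGTG was at 34 summits (8.61%) and 15 flanks (3.797%), also with an adjusted p of 0.0142, which became 0.136 by the same exact test without either replicate. By that test the E-box also missed the threshold with 50 bp on each side (0.112), above the median signal (0.202) and when distal meant more than 1000 bp (0.0658). It passed after merging (0.00914) and with a flank 1000 bp away (0.0345). TATAAA went the other way, at 32 summits (8.10%) and 92 flanks (23.3%), with an adjusted p of 9.63e-09. Its share in tiled windows was 23.4%. The GATA site (A or T, GATA, A or G) was at 149 summits and 143 flanks, and the adjusted exact p was 0.898. The TCF site (CTTTG, then A or T at both of the next bases), the Hox-TALE site TGATNNAT, the forkhead site TGTTTAC and the AP-1 site TGANTCA did not pass either. Nor did CTTATCA, the second GATA-type site of the plot, or CCAAT, the NF-Y box. All motifs were searched on both strands, and 37 summits held none of the 15 motifs.

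Base composition differed between the summit and flank windows. The median GC content was 43.3% at summits and 32.8% at flanks, and it was higher at the summit in 339 of 395 peaks (85.8%). The tiled windows had a median of 33.3%. Soft-masked repeat sequence made up a median of 14.4% of summit windows and 37.3% of flank windows. A soft-masked base was at the summit itself in 67 of 395 peaks (16.96%), against 43.7% of the open sequence. The part of GC content and repeat masking in the motif shares was not tested. Across the 395 peaks Spearman's rho of pooled signal with GC content was 0.221, and with distance to the nearest 5′ end it was 0.0098, both as descriptions over peaks that share libraries.

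**Figure D3:**
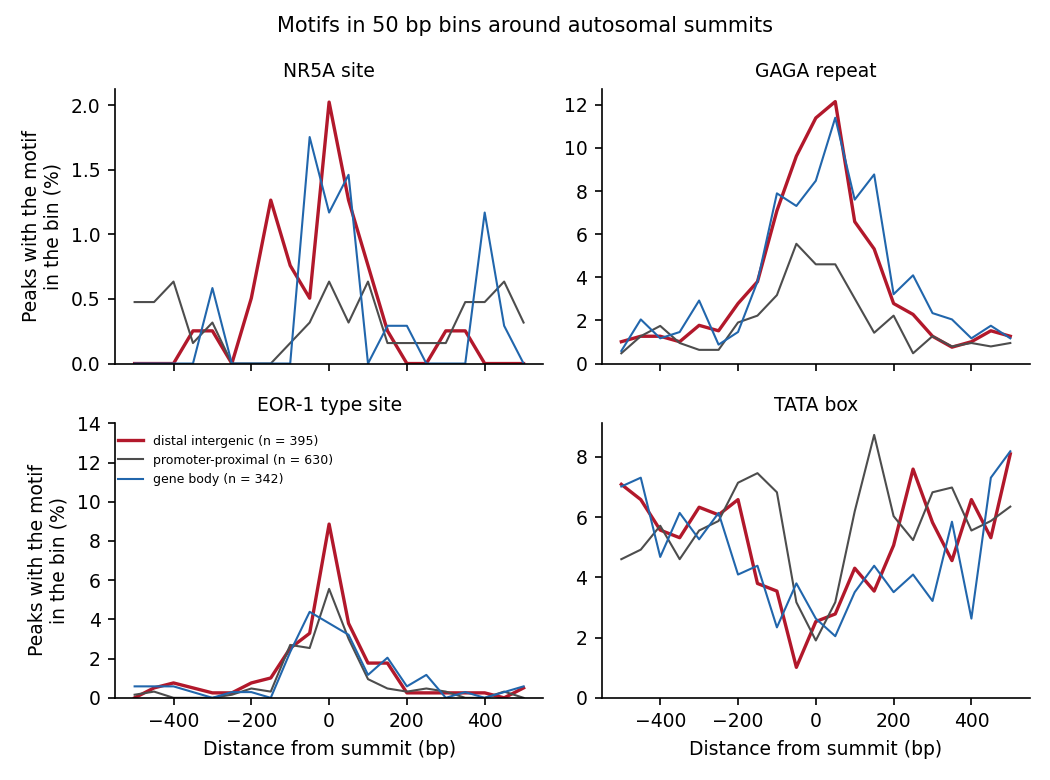
Share of peaks (y axis, percent) with each of 4 motifs in bins of 50 bp by distance from the summit (x axis, bp), for distal intergenic, promoter-proximal and gene-body autosomal thresholded peaks. In distal intergenic peaks GAGACGCAG reaches 8.86% and the NR5A site 2.03% in the central bin, and the TATA box has a dip there.

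Against promoter-proximal peaks, distal intergenic summits more often held receptor and GAGA motifs. The NR5A site was at 5.32% of distal intergenic and 1.27% of promoter-proximal summits, with an odds ratio of 4.37 and an adjusted p of 0.00375 by a two-sided Fisher exact test with adjustment over 38 tests. This call was lost without replicate 1, where the difference of 4.05 points became 1.79 (adjusted p 0.216, exact), and with 50 bp on each side, where it became 1.58 (adjusted p 0.312, exact). AGGTCA was at 19.0% of distal intergenic and 8.57% of promoter-proximal summits (odds ratio 2.50, adjusted p 3.17e-05, exact test). GAGAGAG was at 29.9% of distal intergenic and 15.6% of promoter-proximal summits (odds ratio 2.31, adjusted p 2.76e-06, exact test). The calls for AGGTCA and GAGAGAG held without either replicate. The GATA site was at 37.7% of distal intergenic and 29.4% of promoter-proximal summits, a difference of 8.36 points that missed the threshold (adjusted p 0.0585, exact test). It passed with 50 bp on each side (adjusted p 0.0194, exact), at 1000 bp (0.00175), after merging (0.0326), without replicate 1 (0.0189) and without replicate 2 (0.0323), and missed it above the median signal (0.0946).

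Against gene-body peaks, none of the measures passed the test. The closest was AGGTCA, at 19.0% of distal intergenic and 11.7% of gene-body summits, a difference of 7.29 points with an adjusted p of 0.0605 by the exact test. That difference was 0.773 points without replicate 1 (adjusted p 0.938, exact) and 6.91 points without replicate 2 (adjusted p 0.0323, exact), and it also passed at 1000 bp (8.83 points, adjusted p 0.0367, exact) and after merging (8.46 points, adjusted p 0.0192, exact). The NR5A site was at 5.32% of distal intergenic and 4.39% of gene-body summits, with Wilson intervals of 3.50 to 7.99% and 2.68 to 7.11%. Pooled signals were alike in their middle values, with medians of 41.5 in distal intergenic, 41.8 in promoter-proximal and 39.6 in gene-body peaks. The highest values differed more, at 144, 267 and 292 in the same order. Peaks are not independent replicates, so these p-values cover counting error only.

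**Figure D4:**
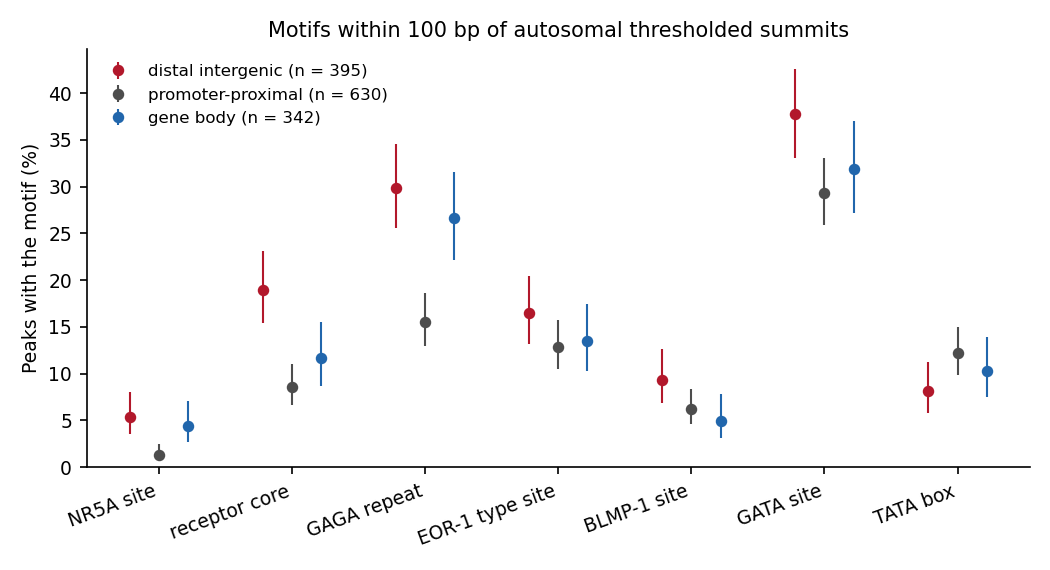
Share of summits (y axis, percent) with each of 7 motifs (x axis) in distal intergenic, promoter-proximal and gene-body autosomal thresholded peaks. Points are shares and bars are Wilson 95% intervals. For the NR5A site and GAGAGAG the distal intergenic and gene-body shares lie close together, and both lie above the promoter-proximal share.

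The pooled list held 24472 autosomal peaks, of which 5.59% passed the threshold. The labels name this list as peaks and background, so the entries counted here as peaks can include background. The pass shares below therefore depend on how much background each class holds, which is not known. Of 5888 distal intergenic peaks in it, 395 passed (6.71%), against 8.20% of 7682 promoter-proximal peaks and 3.14% of 10902 gene-body peaks. The difference from promoter-proximal peaks was -1.49 percentage points (adjusted p 0.00117, two-sided Fisher exact test). It was -0.959 points without replicate 1 (adjusted p 0.0414, exact) and -0.259 points when distal meant more than 1000 bp (adjusted p 0.559, exact), so that call depends on the distance. The difference from gene-body peaks was 3.57 points (adjusted p 1.60e-25, exact) and was past the threshold in every alternative run for it. The weakest distal intergenic peak that passed had a pooled signal of 30.375, and the strongest that did not had 30.321.

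Distal intergenic peaks were denser on some chromosomes than on others. Per megabase of open sequence there were 28.3 on chromosome III (exact Poisson 95% interval 22.5 to 35.0), 25.6 on I (20.3 to 32.0), 23.5 on II (18.9 to 28.9), 15.9 on IV (12.6 to 19.7) and 12.6 on V (9.67 to 16.04), against 19.8 over all autosomes. By two-sided exact binomial tests adjusted over 6 regions, chromosome III was higher (p = 0.00134) and V was lower (p = 6.36e-05) than its share of open sequence. Chromosomes I and IV passed less clearly (p = 0.0247 for each, exact). The share of chromosome I exceeded its share of open sequence by 4.49 points, and by 7.05 points without replicate 2. When distal meant more than 1000 bp the excess on I was 2.25 points and did not pass (adjusted p 0.268, exact). Chromosome IV did not pass at that distance either (adjusted p 0.0900, exact). Chromosome II did not pass (p = 0.0829, exact) but did without replicate 1 (p = 0.0115, exact). Distal intergenic peaks below the threshold leaned the same way on III and V. Chromosome III held 21.3% of the thresholded and 19.0% of the below-threshold distal peaks, against 14.9% of the open sequence. Chromosome V held 16.2% of the thresholded and 19.2% of the below-threshold distal peaks, against 25.6% of the open sequence.

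Each autosome was divided into 3 parts of equal length, and the outer parts held fewer peaks than their open sequence. They had 231 of 395 peaks (58.5%) on 67.4% of the open sequence, or 17.2 per megabase (15.05 to 19.6), against 25.2 (21.5 to 29.4) in the middle parts, with an adjusted p of 0.000624 by the exact binomial test. In worms the autosome centres are rich in conserved, highly expressed genes and the arms in repeats and young gene families. Below the threshold the outer parts had 60.5% of distal intergenic peaks, close to the share above it.

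**Figure D5:**
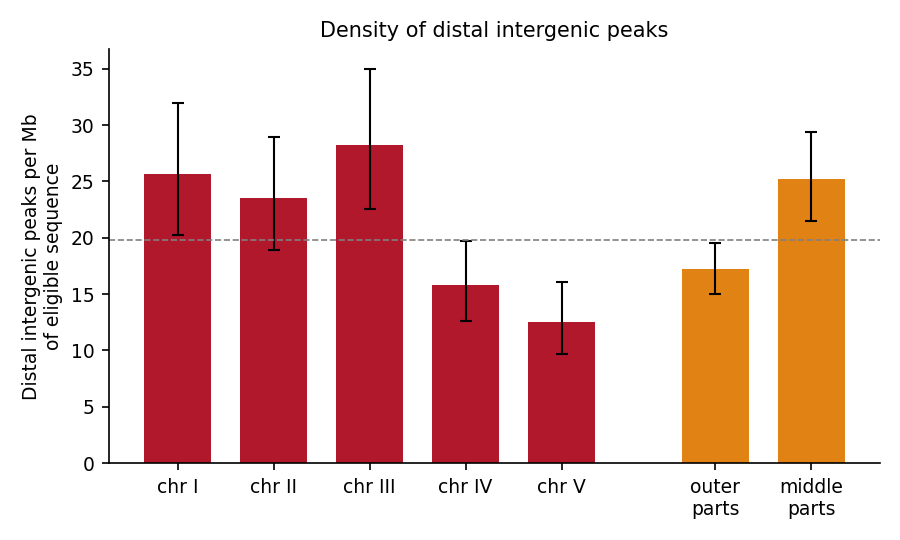
Distal intergenic peaks per megabase of open sequence (y axis) on each autosome and in the outer and middle parts of the autosomes (x axis). Bars are densities, lines are exact Poisson 95% intervals and the dashed line is the mean of 19.8 over all autosomes. Chromosome V, at 12.6, is the lowest.

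The distance from a summit to the closest protein-coding 5′ end had a median of 1807 bp, with values between 507 and 13352 bp. They were within 1000 bp in 88 peaks (22.3%, against 19.99% of the open sequence) and over 5000 bp away in 36 (9.11%, against 16.5%). The nearest 5′ end pointed away from the summit, which was then upstream of it, in 313 peaks (79.2%, against 70.9% of the open sequence). Gaps between 2 convergent genes held 22 peaks (5.57%, against 13.5%) and gaps between divergent genes held 145 (36.7%, against 32.3%). These shares are descriptions and no test was run on them.

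The farthest peak from any protein-coding 5′ end, at chrIV:14594196-14594585, was 13352 bp from irld-18 and had 86.3 in the pooled list, with 14.4 in replicate 1 and 75.3 in replicate 2. The next, 11427 bp from K01F9.2, was the peak upstream of mir-80. Between snt-1 and egl-27, which codes for a chromatin regulator related to MTA1, lay a peak 10952 bp from egl-27, with 10.9 in replicate 1 and 32.5 in replicate 2, beside the NR5A peak already described. Between ari-2 and T12E12.6 lay another pair, with pooled signals of 53.9 and 49.5, and the lower of these was the peak upstream of mir-228. The other peaks of the 10 farthest had Y71F9AR.4, Y75B8A.7, asp-13 and T23E1.1 as nearest genes, at 9630 to 10389 bp, and pooled signals between 35.2 and 49.2.

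When each summit was given to its closest coding 5′ end within 2 kb, 210 peaks named 201 genes, which is 1.17% of 17242 autosomal protein-coding genes. A gene can be named only if open sequence lies within 2 kb of its 5′ end. The share over all genes was not matched for this, here or in the lists below. Of 12 autosomal genes on a list of heterochronic genes, which set the timing of larval events, 3 were named (25%). These were nhr-85, lin-41 and lin-28. The peak 1535 bp upstream of lin-41, a TRIM-NHL gene repressed by let-7, had 67.1 in the pooled list, with 30.9 in replicate 1 and 38.97 in replicate 2. Near lin-28, an RNA-binding regulator of early larval fates, the values were 34.01 in the pooled list, 17.5 in replicate 1 and 15.7 in replicate 2. The count of 3 became 2 without replicate 1 and 5 without replicate 2, and no test was run on any list.

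Genes of the epidermis and of molting supplied 2 of 23 (8.70%, against 1.17% of all autosomal protein-coding genes, untested). The peak 1245 bp upstream of let-413, the worm Scribble gene of epithelial polarity, had 63.5 in the pooled list, with 26.9 in replicate 1 and 38.6 in replicate 2. At noah-2, which codes for an apical matrix protein of the epidermis, the values were 52.5, 18.4 and 40.6 in that order. That list had 4 genes without replicate 2. Lipid synthesis supplied 2 of 21 (9.52%) and 0 without replicate 2. They were fat-2, a fatty acid desaturase gene whose peak lies between it and fat-1 with 44.3 in the pooled list, 11.0 in replicate 1 and 35.2 in replicate 2, and fasn-1, the fatty acid synthase gene, with 33.0.

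Nuclear receptor genes supplied 5 of 247 (2.02%, against 1.17% of all autosomal protein-coding genes, untested). They were nhr-85, nhr-21, nhr-237, nhr-258 and nhr-70, and the highest pooled signals after nhr-85 were 58.1 at nhr-21 and 36.3 at nhr-237. Other DNA-binding families supplied 4 of 79 (5.06%), among them ztf-6 with 64.7, ztf-30 with 35.2 and hlh-33 with 30.7, and 2 without replicate 1. The homeobox list supplied 1 of 65, ceh-20, the worm Pbx gene and a Hox cofactor, with 48.6 in the pooled list, 17.05 in replicate 1 and 29.2 in replicate 2. Neuropeptide and insulin genes supplied 4 of 106 (3.77%), which were ins-13, nlp-24, nlp-40 and nlp-29. The ins-13 peak is the one 22 bp from sls-2.2, and the only gene of the heat shock and proteasome list, hsp-12.3, had the peak 24 bp from F38E11.11. Both names therefore come from summits beside an snRNA gene, and without replicate 2 the heat shock and proteasome list had 0.

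The share over all autosomal protein-coding genes was 1.17%. Among large families, chemoreceptors had 1 of 1254 (0.0797%), F-box genes 1 of 305, C-type lectins 1 of 237 and detoxification enzymes 0 of 171. Ribosomal protein genes had 0 of 76 and histone genes 0 of 68, and each had 1 in the list of a single replicate. At the share over all genes, 0 is an ordinary count for lists of this size. Collagens, the main proteins of the cuticle, had 2 of 145 (1.38%, near the share over all genes). They were col-42 with 44.6 and col-3 with 35.3 in the pooled list, and the count was 4 without replicate 1. A peak within 2 kb does not show that it acts on the gene named.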

How the data were processed

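NHR-25 binding was measured by ChIP-seq in 2 biological replicates of 1 group. The authors deposited narrowPeak lists of 10 columns for each replicate, for the pooled replicates and after an irreproducible discovery rate (IDR) threshold, per the labels' names for the files, and the signal values used here are the authors' deposited values for each peak. The peak caller, the aligner, the IDR cutoff and the signal scale were not given in the sources used here. A control that the labels point to was not used here. The pooled list is named as peaks and background for input to IDR, so its entries below the threshold can include background. The deposited ce11 lists held 23929 (replicate 1), 30000 (replicate 2), 30000 (pooled) and 1826 (thresholded) peaks, and their summit offset column, in bp, gave each summit. No autosomal thresholded peak was wider than 390 bp, which was also the median width in each class, so width could not be compared.

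Genes came from Ensembl release 115 and sequence from RefSeq, both on WBcel235 (ce11). Coordinates count from 1. Open sequence means autosomal bases that meet the same position rule as the summits (19.9 Mb). Flanks were centred 500 bp from the summit on a side drawn with a fixed seed. Flanks in another class were kept. Of the 395 flank centres, 306 met the distal intergenic rule, 53 were promoter-proximal and 36 lay inside genes. Exact McNemar, Fisher and binomial tests with Benjamini-Hochberg adjustment used Python 3.11.15 and scipy 1.17.1, and were checked on simulated data. Intervals are 95%. Leaving out a replicate meant using the other replicate's 1826 highest-signal peaks. Named genes are those nearest the 20 strongest peaks, up to 4 per gene list, all peaks with an NR5A site, the 10 farthest peaks and groups of 3 summits. The small RNA and microRNA neighbours, and the sequences beyond the NR5A set, were chosen after their values were seen. Some peaks covered by the naming rule are not reported here. The members, gene lists and motifs were chosen with earlier results of these data known. Of the list members, daf-21 and elt-5 matched no gene by name. Alternatives covered the distance rule, window, flank, signal threshold, merging of near summits, overlap rule, gene assignment and each replicate alone.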

Additional observations from a re-analysis of the deposited data

How the results depend on the processing

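Of 389 alternative values, 302 were labelled the same. These were tests without a change of sign or of side of the threshold, and counts that moved by at most 1.5 times. A further 31 counts moved by over 1.5 times, 12 values became significant, 15 lost significance and 29 changed sign. The number of distal intergenic peaks was 531 at 250 bp, 307 at 1000 bp and 383 after merging. The measures that passed against the other classes numbered 3, but 6 at 1000 bp and 5 after merging, and between 3 and 6 without a replicate. At 1000 bp the pass share differed from promoter-proximal peaks by -0.259 points. At that distance 3 regions passed the density test, which were chromosomes III and V and the outer parts. Genes numbered 319 within 5 kb and 634 with both neighbours. Changes of sign, in percentage points, were all in values that had not passed the test, and their cause was not tested. Summit minus flank, with 50 bp on each side these were Hox-TALE -0.253, AP-1 -0.506 and CCAAT -2.78. At 1000 bp AP-1 was -0.326. Above the median signal forkhead was -3.5 and CCAAT -2.5. With a flank 1000 bp away GATA was -1.52, Hox-TALE -1.77, AP-1 -1.77 and CCAAT -2.53. Without a replicate, Hox-TALE ran from -2.56 to 0, forkhead from -1.03 to 1.96, AP-1 from -1.28 to 0.978 and CCAAT from -3.59 to -1.96. Distal intergenic minus promoter-proximal, the E-box was -0.557 at 1000 bp and ran from -0.521 to 3.46 without a replicate. TATAAA ran from -8.94 to 0.281 (past the threshold without replicate 2, adjusted exact p 0.00164), and signal above the median from -6.82 to 2.89. Overlap with the replicate left out was -2.01 (replicate 1) and 1.81 (replicate 2). Distal intergenic minus gene body, above the median signal the share of strong peaks was -6.09 and overlap with replicate 1 was -4.20. Without a replicate the share of strong peaks ran from -1.07 to 3.94, NR5A from -1.33 to 1.63, the E-box from -1.88 to 1.83 and TATAAA from -4.88 to 2.03. Overlap with the replicate left out was -0.960 (replicate 1) and 8.78 (replicate 2). No paired analysis was possible because there is 1 group. Depth is unknown, so no value could be weighed by reads, and rare motifs rest on few peaks.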
